A study of Mus musculus with 8 samples.

Results

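NF-kB pathway and target genes were examined as a list of 44 genes, chosen by name for their roles in NF-kB signalling: 5 subunits, 7 inhibitors, 9 kinases, 7 adaptors, 5 receptors and 11 target genes. All 44 were listed in each of the 8 count tables of 23282 rows, and 40 of them were among the 13174 genes whose counts were high enough to be tested. The list was chosen by name and not by its values in these libraries, but with earlier results of the same data known. The series measured messenger RNA in calf muscle (gastrocnemius) of C57BL/6 mice, in a model of cancer cachexia, the muscle wasting that accompanies a tumour, and its title names muscular NF-kB signalling.

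By their titles, 2 libraries named RP came from mice carrying a Lewis lung carcinoma, grown from tumour cells placed under the skin, and dosed by mouth each day for 2 weeks with Paeonia lactiflora (peony) extracted in 30% ethanol, at 100 mg/kg in 200 µl of water. Another 3 libraries, titled Control, came from mice with the same tumour given water alone. The remaining 3, titled Normal, came from mice injected with 100 µl of saline and given water. Tumours grew for 2 weeks before the tumour-bearing mice were regrouped by tumour size and dosing began, and the labels list an age of 4 weeks without saying at which step. The labels of 6 of the 8 libraries conflict: the tables of the 3 Normal-titled samples carry Control in their names and column headers, and those of the 3 Control-titled samples carry Normal. Libraries are grouped here by title and are called Control-titled and Normal-titled throughout. If the table names are the right ones, each Control-against-Normal difference turns round, and what is given for RP against one group belongs to the other. The labels do not say that each library is a separate animal, so p-values measure only the spread between these libraries.

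NF-kB is a family of dimeric transcription factors that wait in the cytoplasm, bound to IkB inhibitor proteins. Cytokine and microbial receptors signal through adaptors to the IkB kinase complex, which marks IkB for destruction and frees the dimers to enter the nucleus, where they bind kB sites in DNA. Several of the genes they switch on encode their own inhibitors, so the messenger RNA of an inhibitor such as IkBa is itself commonly read as a target. In skeletal muscle the pathway is known for its part in atrophy, and its activity is set mainly on proteins, which were not measured here.

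The kB site was searched for as GGGA, then 4 bases of any kind, then CC, on both strands of the promoters in the RefSeq-derived table of build GRCm38.p6, from 250 bases before each gene's start to 50 bases after it. Of the 44 members, 34 had a promoter of 300 bases in that table, and 17 of these (50.0%) held at least 1 match, against 6195 of 27025 genes (22.9%) over the whole table. A match is a string of letters and was not tested as a binding site. The matches below are shown with 5 bases to either side, with the match in capitals, because they stand at genes of several roles: inhibitors, a subunit, a receptor and cytokine targets.
Nfkbia, 212 bases before the start: ctgcaGGGAAGTACCtagag
Nfkbia, 29 bases before the start: ggcttGGAAATTCCCcgcgc
Bcl3, from base 3 after the start: ggcagGGGAAGTCCCgctgc
Tnip1, 57 bases before the start: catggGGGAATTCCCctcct
Nfkb2, 39 bases before the start: gtcacGGGAATTCCCcccct
Tlr2, 172 bases before the start: acctgGGGAATTCCCacacg
Cxcl1, 71 bases before the start: actccGGGAATTTCCctggc
Il6, 44 bases before the start: aatgtGGGATTTTCCcatga
At Bcl3, Tnip1, Nfkb2 and Tlr2 the same bases match on both strands, and the Cxcl1 and Il6 matches each overlap a match on the other strand that starts 1 base later. The promoters of the members that differed between the Control-titled and Normal-titled libraries are given whole, Nfkbia on the minus strand at chr12:55492598-55492897 and Il1b on the minus strand at chr2:129371090-129371389, with matches in capitals.
Nfkbia: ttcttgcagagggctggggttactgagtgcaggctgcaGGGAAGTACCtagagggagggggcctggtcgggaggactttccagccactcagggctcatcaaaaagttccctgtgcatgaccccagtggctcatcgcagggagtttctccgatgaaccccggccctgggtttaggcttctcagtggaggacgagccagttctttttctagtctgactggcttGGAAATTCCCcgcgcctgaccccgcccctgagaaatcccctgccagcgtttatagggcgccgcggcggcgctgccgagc
Il1b: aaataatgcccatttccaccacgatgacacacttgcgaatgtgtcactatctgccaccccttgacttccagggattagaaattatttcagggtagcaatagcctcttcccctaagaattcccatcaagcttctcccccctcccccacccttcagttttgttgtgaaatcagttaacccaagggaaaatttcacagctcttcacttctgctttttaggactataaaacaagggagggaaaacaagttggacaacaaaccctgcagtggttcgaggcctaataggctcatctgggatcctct
The Il1b window held none of these matches, which says only that these letters are not in these 300 bases.

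Library totals lay between 9528011 and 12333767 counts. Levels are given as CPM, counts scaled to library size with edgeR's TMM factors, and come from reads of transcript 3' ends, so they are compared between libraries and not between genes. The 12 skeletal muscle markers were all detected in every library and summed to 174200 and 170200 CPM in the RP, 144700 to 171900 CPM in the Control-titled and 99990 to 135700 CPM in the Normal-titled libraries, so the Normal-titled libraries lay below all the others. The 8 fibroblast markers summed to 8217 and 7983 CPM in the RP, 9180 to 10080 CPM in the Control-titled and 5334 to 8597 CPM in the Normal-titled libraries. Of these 8, 6 were higher and 0 lower in Control against Normal (edgeR, adjusted p under 0.05), against 4.99 and 5.45% of all genes tested. The collagen gene Col3a1 was among the 6 (log2 change 2.85). Dcn, which alone stood at 4887 to 7042 CPM, did not pass (log2 change -0.18, adjusted p = 0.533, edgeR). Neither did Pdgfra (log2 change 0.21, adjusted p = 0.552, edgeR). In RP against Normal 3 of the 8 were higher, against 1.67% of all genes tested. Haemoglobin genes held 0.862 and 3.83% of counts in RP 1 and 2, 1.41 to 1.61% in the Control-titled and 4.57 to 19.7% in the Normal-titled libraries. Some haemoglobin entries had nearly equal counts, such as Hbb-bs and Hbb-b1, with 124577 and 122833 in Normal-titled library 1. Whether the same reads were counted at both was not tested, and if they were, these shares are too high. In bulk muscle, fewer cells of a type and less RNA per cell cannot be told apart.

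**Figure D1:**
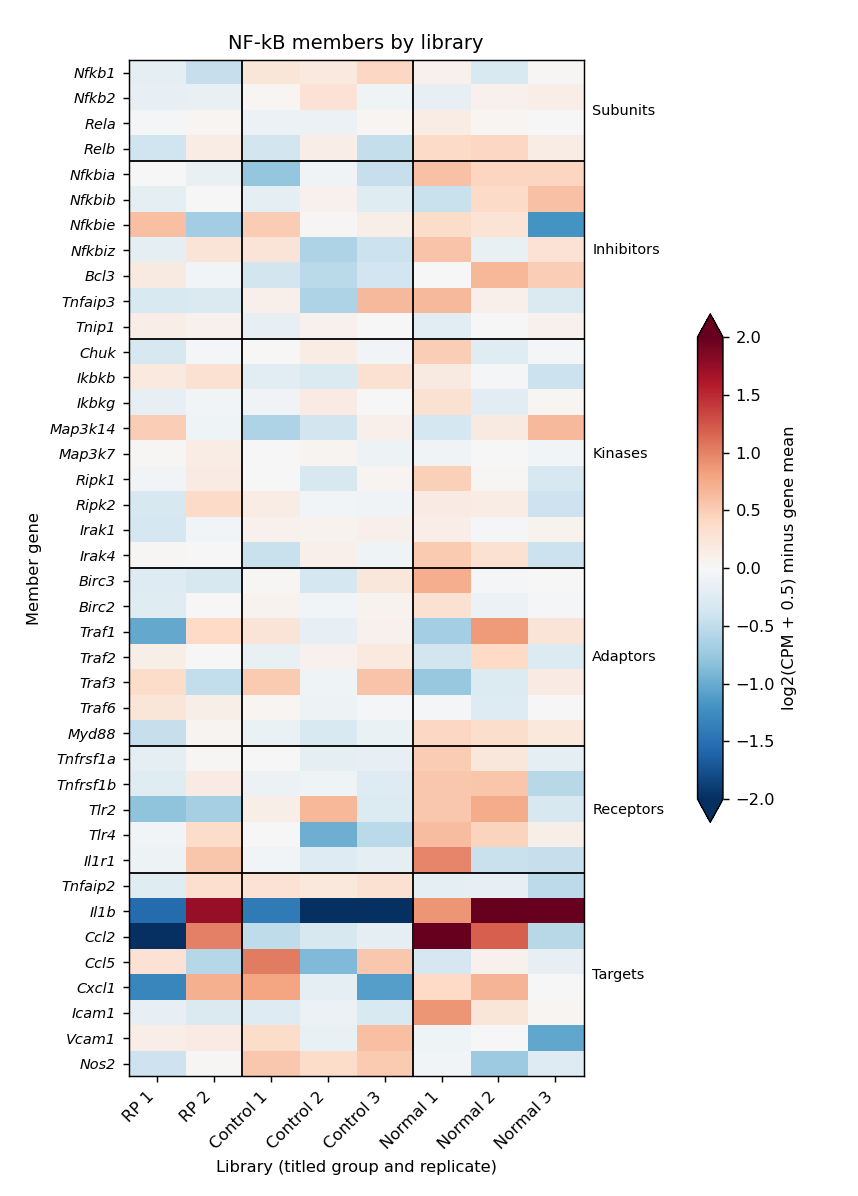
Heat map of the 40 tested members (rows, by role) in the 8 libraries (columns). Colour is log2(CPM + 0.5) minus the gene's mean over the 8 libraries; Il1b and Ccl2 carry the deepest colours, with RP 1 and RP 2 on opposite sides.

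By title, setting Control against Normal asks what the tumour does to the muscle. Of the members, 2 of 40 differed and both were lower in the Control-titled libraries: Nfkbia, the gene of the inhibitor IkBa, and Il1b, the gene of the cytokine interleukin-1 beta. Over all genes tested, 10.4% passed the same threshold, an adjusted p under 0.05 in edgeR's quasi-likelihood test, 4.99% as higher and 5.45% as lower, so 2 of 40 is not above the background. An unadjusted p under 0.05 was reached by 12 of 40 members and by 26.3% of all genes tested. The median log2 change over the 40 tested members was -0.16, against 0.00043 over all genes tested, with 15 members above 0 and 25 below. Members whose groups did not overlap numbered 10 (3 higher and 7 lower), against 31.3% of all genes tested.

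Nfkbia (chromosome 12, 55489409 to 55492647, build GRCm38, minus strand) was at 181, 295 and 225 CPM in Control-titled libraries 1, 2 and 3, against 465, 419 and 417 CPM in Normal-titled libraries 1, 2 and 3. All 3 Control-titled libraries lay below all 3 Normal-titled ones. It averaged 234 ± 57.5 CPM in the Control-titled and 434 ± 27.0 CPM in the Normal-titled libraries (SD, n = 3 each), or 0.539-fold with a 95% interval of 0.415 to 0.70 (log2 change -0.89 ± 0.174, SE; edgeR, adjusted p = 0.00586). No annotated gene overlaps it. It passed in all 17 alternative fits and leave-outs, at log2 changes of -1.08 to -0.74.

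Il1b (chromosome 2, 129364569 to 129371164, minus strand) was at 0.970, 0.400 and 0.452 CPM in the Control-titled libraries, from 11, 4 and 5 counts, against 6.75, 18.9 and 17.7 CPM in the Normal-titled libraries, from 75, 198 and 182 counts. The groups stood well apart, and the gene was high enough to be tested only because of the libraries in which it is high. On the log2 scale it differed by -4.53 ± 0.777 (SE; edgeR, adjusted p = 0.00286), with a 95% interval of 0.0136-fold to 0.139-fold, and it passed in all 17 alternatives. An antisense gene, Il1bos, overlaps Il1b but not its last 500 bases, and the strand counted is not stated. Neutrophils and monocytes are known to make interleukin-1 beta. The 17 neutrophil markers in the tables summed to 15.8, 12.7 and 22.7 CPM in Control-titled libraries 1, 2 and 3, with 6, 9 and 7 of them at 0, against 973, 1989 and 1447 CPM in Normal-titled libraries 1, 2 and 3, with 2 at 0 in each. S100a8 and S100a9 alone stood at 492 to 948 CPM and 382 to 860 CPM in the Normal-titled libraries. Of the 12 neutrophil markers tested, 11 were lower and 0 higher in the Control-titled libraries, against 5.45 and 4.99% of all genes tested. Some, like Il1b, could be tested only because of the libraries in which they are high: Ltf had 0 counts in every Control-titled library. The part of the neutrophil markers in the Il1b difference was not tested.

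**Figure D2:**
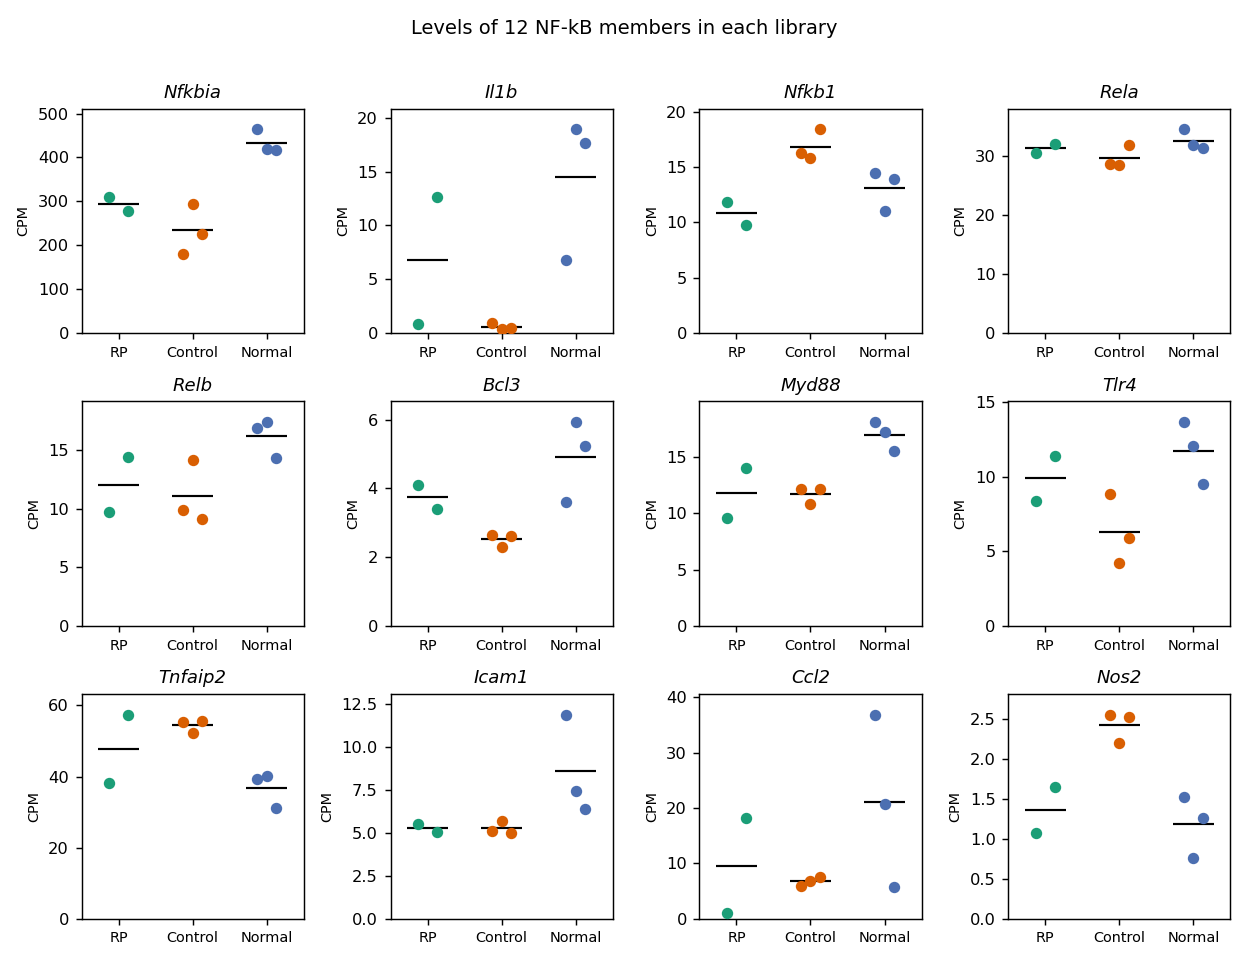
CPM of 12 members in each library (points), by titled group, with the group mean as a bar and every axis starting at 0. Nfkbia stood at 278 to 309 CPM in the RP, 181 to 295 CPM in the Control-titled and 417 to 465 CPM in the Normal-titled libraries.

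The DNA-binding subunits were measured in 4 of 5 cases. Nfkb1, the gene of p105, the precursor of p50, was at 16.3, 15.8 and 18.4 CPM in the Control-titled libraries, against 14.5, 11 and 13.9 CPM in the Normal-titled libraries. The annotation places Gm43430 within Nfkb1. The groups did not overlap, but the log2 change of 0.36 ± 0.182 (SE) did not pass (adjusted p = 0.231, edgeR). Relb, whose product RelB pairs with p52 in the non-canonical pathway, was at 9.88, 14.2 and 9.13 CPM in the Control-titled libraries, against 16.9, 17.4 and 14.4 CPM in the Normal-titled libraries. Its groups came close without overlapping, and its log2 change of -0.56 ± 0.221 (SE) did not pass (adjusted p = 0.129, edgeR).

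Rela, the gene of the transactivating subunit p65, was at 28.7, 28.6 and 31.9 CPM in the Control-titled libraries, against 34.6, 32.0 and 31.5 CPM in the Normal-titled libraries. The groups overlapped, with a 95% interval of 0.740-fold to 1.12-fold. Nfkb2, the gene of p100, the precursor of p52, was at 19.5, 23.2 and 17.8 CPM in the Control-titled and 16.9, 20.2 and 20.9 CPM in the Normal-titled libraries, and these overlapped too (log2 change 0.061, adjusted p = 0.861, edgeR). A protein-coding gene, Psd, overlaps the 3' end of Nfkb2. Rel, the gene of the lymphoid subunit c-Rel, was too low to test, with at most 20 counts in any library.

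Among the inhibitors, Bcl3, an atypical IkB protein that binds p50 and p52 in the nucleus, was at 2.65, 2.30 and 2.62 CPM in the Control-titled libraries, against 3.60, 5.93 and 5.24 CPM in the Normal-titled libraries. The groups did not overlap, and the log2 change of -0.96 ± 0.312 (SE) fell short of the threshold (adjusted p = 0.0690, edgeR). Nfkbib, the gene of IkBb, was at 106, 128 and 102 CPM in the Control-titled and 89.2, 158 and 181 CPM in the Normal-titled libraries. Normal-titled library 1 lay below all Control-titled libraries and Normal-titled libraries 2 and 3 above them, and without library 1 Nfkbib passed (adjusted p = 0.0151, edgeR) where with it the adjusted p was 0.340. The gene Ccer2 overlaps the 3' end of Nfkbib.

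Nfkbie, the gene of IkBe, had 3.0, 2.0 and 2.17 CPM in the Control-titled and 2.70, 2.49 and 0.582 CPM in the Normal-titled libraries. Nfkbiz, the gene of the nuclear regulator IkBz, had 6.26, 3.20 and 3.71 CPM in the Control-titled and 7.92, 4.59 and 6.41 CPM in the Normal-titled libraries. Both overlapped between the groups, with adjusted p = 0.772 and 0.335 (edgeR). Tnfaip3, the gene of the ubiquitin-editing enzyme A20, and Tnip1, the gene of its binding partner, also overlapped, with log2 changes of -0.083 and 0.013.

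The 9 kinase genes had log2 changes between -0.53 and 0.029, and 0 of them had an unadjusted p under 0.05. The IkB kinase complex consists of the catalytic subunits IKKa and IKKb, from Chuk and Ikbkb, and the scaffold NEMO, from Ikbkg. Chuk was at 9.61, 10.7 and 9.22 CPM in the Control-titled and 13.7, 8.04 and 9.41 CPM in the Normal-titled libraries. Ikbkb was at 17.5, 16.7 and 25.3 CPM in the Control-titled and 23.3, 19.8 and 15.1 CPM in the Normal-titled libraries. Ikbkg was at 11.9, 14.0 and 12.5 CPM in the Control-titled and 15.5, 10.6 and 12.9 CPM in the Normal-titled libraries. In all 3 the groups overlapped, and the 95% intervals were 0.671-fold to 1.34-fold for Chuk, 0.751-fold to 1.39-fold for Ikbkb and 0.738-fold to 1.31-fold for Ikbkg. Map3k7, the gene of the upstream kinase TAK1, had the narrowest interval of the kinases, 0.836-fold to 1.23-fold. Map3k14, the gene of the non-canonical kinase NIK, was at 2.56, 3.10 and 4.52 CPM in the Control-titled and 3.15, 4.79 and 6.79 CPM in the Normal-titled libraries, with overlap (adjusted p = 0.377, edgeR). The receptor-proximal kinase genes Ripk1, Ripk2, Irak1 and Irak4 overlapped too, with adjusted p of 0.470 or more; Irak1 shares sequence at its 3' end with 23 other genes, so its counts are uncertain, as are those of Irak4, whose 3' end Twf1 overlaps.

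Of the 7 adaptor genes, Myd88, which couples Toll-like and interleukin-1 receptors to the IRAK kinases, was at 12.2, 10.8 and 12.1 CPM in the Control-titled libraries, against 18.1, 17.1 and 15.5 CPM in the Normal-titled libraries. The groups did not overlap, and the log2 change was -0.53 ± 0.188 (SE; adjusted p = 0.0910, edgeR). The gene Slc22a14 overlaps the 3' end of Myd88. Traf3, an adaptor that holds NIK in check, was at 17.4, 11.3 and 18 CPM in the Control-titled and 6.84, 9.76 and 13.5 CPM in the Normal-titled libraries. Its groups overlapped (log2 change 0.64, adjusted p = 0.181, edgeR). The other 5 adaptors, Birc2, Birc3, Traf1, Traf2 and Traf6, had adjusted p of 0.526 or more.

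The 5 receptor genes all had a log2 change below 0, from -0.89 to -0.20, and none passed; receptors of this kind are carried by muscle fibres, vessels and leukocytes alike. Tlr4, the receptor for lipopolysaccharide, was at 8.82, 4.20 and 5.88 CPM in the Control-titled libraries, against 13.7, 12.1 and 9.51 CPM in the Normal-titled libraries. Its groups did not overlap, and its difference of -0.89 ± 0.274 on the log2 scale (SE) narrowly missed the threshold (edgeR, adjusted p = 0.0548). Tlr4 passed in 6 of 17 alternatives, among them DESeq2 and limma-voom. The tumour necrosis factor receptor genes Tnfrsf1a and Tnfrsf1b had log2 changes of -0.34 and -0.44 (adjusted p = 0.246 and 0.308, edgeR), and both passed when Normal-titled library 3 was left out (adjusted p = 0.0450 and 0.0190). The summed macrophage markers were at 735, 514 and 595 CPM in Control-titled libraries 1, 2 and 3 and at 690, 712 and 342 CPM in Normal-titled libraries 1, 2 and 3. The library with the lowest Tnfrsf1b also had the lowest macrophage sum. The highest sum, in Control-titled library 1, stood beside a Tnfrsf1b of 16.8 CPM, against 26.8 and 27.1 CPM in Normal-titled libraries 1 and 2. Of 14 macrophage markers tested, 1 was lower and 0 higher, against 5.45 and 4.99% of all genes tested. Among these markers 8 had a log2 change above 0 and 6 below. Their part in these differences was not tested. Il1r1, the interleukin-1 receptor gene, was at 5.82, 5.0 and 5.24 CPM in the Control-titled and 12.4, 4.31 and 4.27 CPM in the Normal-titled libraries, where library 1 stood apart (adjusted p = 0.571, edgeR).

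Of the 11 target genes, 8 could be tested, 6 of these had an unadjusted p under 0.05, against 26.3% of all genes tested, and only Il1b passed adjustment. Tnfaip2, a gene first described as induced by tumour necrosis factor, was at 55.4, 52.3 and 55.7 CPM in the Control-titled libraries, against 39.2, 40.1 and 31.2 CPM in the Normal-titled libraries. The groups did not overlap, and the log2 change of 0.56 ± 0.170 (SE) lay just outside the threshold (adjusted p = 0.0517, edgeR) and inside it in 10 of 17 alternatives. An antisense gene overlaps the 3' end of Tnfaip2. Nos2, the inducible nitric oxide synthase gene, was at 2.56, 2.20 and 2.53 CPM in the Control-titled and 1.53, 0.766 and 1.26 CPM in the Normal-titled libraries. Its groups did not overlap, from 8 to 29 counts a library (log2 change 1.03 ± 0.438 (SE), adjusted p = 0.157, edgeR). The sums of the fibroblast and skeletal muscle markers given above also stood higher in the Control-titled libraries. Of the 12 skeletal muscle markers, 6 had a log2 change above 0 and 6 below. Of them 3 were called higher and 1 lower, against 4.99 and 5.45% of all genes tested. The part of either marker list in the levels of Tnfaip2, Nos2 and Vcam1 was not tested.

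Icam1 and Vcam1, the adhesion molecule genes that activated endothelium uses to capture leukocytes, stood on opposite sides. Icam1 was at 5.12, 5.70 and 4.97 CPM in the Control-titled libraries, against 11.9, 7.47 and 6.41 CPM in the Normal-titled libraries, without overlap (log2 change -0.71, adjusted p = 0.111, edgeR). Vcam1 was at 19.4, 13.5 and 23.0 CPM in the Control-titled and 14.1, 15 and 6.99 CPM in the Normal-titled libraries, with overlap (log2 change 0.63, adjusted p = 0.157, edgeR). Ccl2, the monocyte chemoattractant gene, was at 6.0, 6.90 and 7.59 CPM in the Control-titled and 36.9, 20.8 and 5.82 CPM in the Normal-titled libraries. The Control-titled libraries lay close together, with Normal-titled library 3 just below them and the other two above, and the log2 change of -1.63 ± 0.684 (SE) did not pass (adjusted p = 0.149, edgeR). The Ccl2 difference passed in 4 of 17 alternatives, among them the fit with no filter. It also passed without Normal-titled library 3, with a log2 change of -2.08. The genes Gm17268 and Gm47079 overlap the 3' ends of Ccl2 and Icam1. Of 12 endothelial markers, 3 were lower and 0 higher in the Control-titled libraries, against 5.45 and 4.99% of all genes tested. Of the 12, 5 had a log2 change above 0 and 7 below, and their part in the adhesion genes was not tested. The chemokine genes Cxcl1 and Ccl5 overlapped between the groups, on 6 to 50 and 4 to 33 counts a library over all 8 (adjusted p = 0.730 and 0.468, edgeR).

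The classic readouts Tnf, Il6 and Ptgs2, which with Rel make up the 4 untested members, had few counts. Tnf had 0 to 4 counts a library and Il6 had 0 to 6. Ptgs2, the cyclooxygenase-2 gene, had 2 and 2 counts in RP 1 and 2, 10, 5 and 2 in the Control-titled and 10, 16 and 8 in the Normal-titled libraries. The RP libraries lay below the Normal-titled ones without overlap, and Ptgs2 was below the filter, so this was not tested. At this depth a difference between groups in Tnf or Il6 was not detectable.

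**Figure D3:**
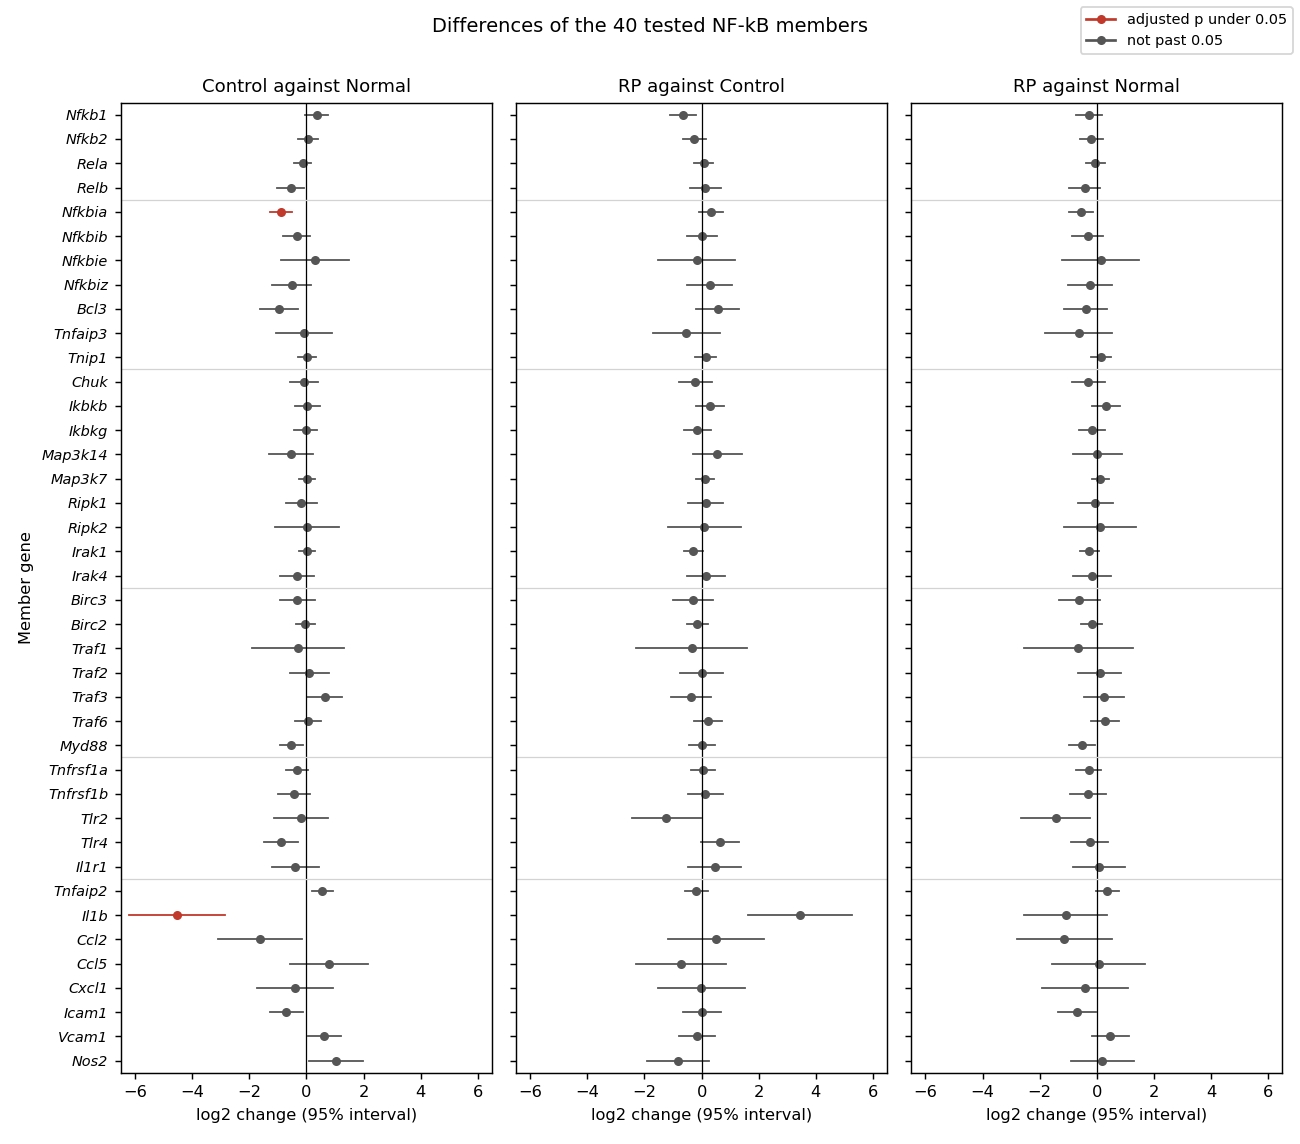
log2 changes of the 40 tested members (points) with 95% intervals (lines) in the 3 comparisons, from 1 edgeR fit of all 8 libraries. Red marks an adjusted p under 0.05: Nfkbia and Il1b in Control against Normal, and none in the comparisons of RP.

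Setting RP against Control asks, by title, what the extract does in tumour-bearing mice. Of the 40 tested members, 0 passed in edgeR, 0 in DESeq2 and 0 in limma-voom, and 3 had an unadjusted p under 0.05 in edgeR. Over all genes tested, 0.175% passed (0.144% as higher and 0.0304% as lower) and 8.98% had an unadjusted p under 0.05. The median log2 change of the members was 0.018, against -0.0038 over all genes tested. The comparison shares the Control-titled libraries with the previous one.

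Nfkb1 had an unadjusted p of 0.00920 and was at 11.8 and 9.77 CPM in RP libraries 1 and 2, against 16.3, 15.8 and 18.4 CPM in the Control-titled libraries. Both RP libraries lay below all Control-titled libraries, at 0.641-fold with a 95% interval of 0.468 to 0.878, and the adjusted p was 0.341 (edgeR). Nfkb1 stayed at log2 changes between -0.79 and -0.51 in the 17 alternatives and passed in 0 of them. Tlr2, a receptor for bacterial lipopeptides with the match shown above, was at 0.970 and 1.13 CPM in the RP libraries, against 2.29, 3.60 and 1.63 CPM in the Control-titled libraries. The groups did not overlap, on 9 and 11 counts in the RP libraries (adjusted p = 0.546, edgeR).

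Il1b was at 0.862 and 12.7 CPM in RP 1 and 2, from 8 and 123 counts, against 0.970, 0.400 and 0.452 CPM in the Control-titled libraries. RP 1 lay among the Control-titled libraries and RP 2 inside the Normal-titled range, so the fitted log2 change of 3.44 ± 0.849 (SE; adjusted p = 0.188, edgeR) describes neither library. Without RP 1 the difference passed at a log2 change of 4.34, and without RP 2 the log2 change was 0.48 with adjusted p = 0.930. Ccl2 was split too, at 0.970 CPM in RP 1 and 18.2 CPM in RP 2, from 9 and 177 counts, below and above all Control-titled libraries. Of the 12 neutrophil markers tested, 2 (S100a8 and S100a9) were higher in the RP libraries, against 0.144% of all genes tested. The neutrophil markers summed to 36.9 CPM in RP 1, with 7 at 0, and to 503 CPM in RP 2, with 3 at 0. Their part in the split was not tested. Of the 40 tested members, 33 differed by less than 2-fold between the RP libraries, and RP 2 was more than 2-fold above RP 1 in 5 and more than 2-fold below it in 2. Besides Il1b and Ccl2, these rest on few counts in RP 1 and 2. Cxcl1 had 6 and 40, Ripk2 7 and 15, Traf1 1 and 11, Ccl5 14 and 6, and Nfkbie 30 and 10. The share of all genes that split in this way was not computed.

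Nfkbia was at 309 and 278 CPM in RP 1 and 2, against 181, 295 and 225 CPM in the Control-titled libraries. RP 2 lay inside the Control-titled range and RP 1 just above it, and the 95% interval of 0.941-fold to 1.67-fold includes no difference (adjusted p = 0.662, edgeR). Rela was at 30.6 and 32.1 CPM in the RP libraries, inside or next to the Control-titled range of 28.6 to 31.9 CPM, at 1.05-fold with an interval of 0.837 to 1.33. Nfkb2 was at 16.8 and 17.1 CPM in the RP libraries and Relb at 9.70 and 14.4 CPM, and their adjusted p were 0.756 and 0.927 (edgeR). Ikbkb was at 23.6 and 25.3 CPM in the RP libraries, with an interval of 0.877-fold to 1.73-fold against the Control-titled libraries. Chuk was at 7.54 and 9.36 CPM and Ikbkg at 11.1 and 12 CPM in the RP libraries, at 0.860-fold and 0.905-fold of the Control-titled libraries (adjusted p = 0.857 and 0.891, edgeR).

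Bcl3 was at 4.09 and 3.39 CPM in the RP libraries, above all 3 Control-titled libraries, which reached 2.65 CPM (1.48-fold, adjusted p = 0.684, edgeR). Tlr4 was at 8.41 and 11.4 CPM in the RP libraries, overlapping the Control-titled range of 4.20 to 8.82 CPM (1.57-fold, adjusted p = 0.566, edgeR). Nfkbib was at 107 and 121 CPM, Nfkbie at 3.23 and 1.03 CPM and Nfkbiz at 4.42 and 6.27 CPM in the RP libraries, and each overlapped the Control-titled values. Myd88 was at 9.59 and 14.0 CPM, Traf3 at 15.5 and 8.33 CPM, Tnfaip2 at 38.0 and 57.4 CPM and Vcam1 at 16.5 and 16.9 CPM in the RP libraries, again with overlap. Icam1 was at 5.50 and 5.04 CPM in the RP libraries, at 1.00-fold of the Control-titled libraries with an interval of 0.630 to 1.59. Nos2 was at 1.08 and 1.65 CPM in the RP libraries, below the Control-titled libraries, which went no lower than 2.20 CPM (0.563-fold, adjusted p = 0.666, edgeR). Without overlap, 3 members were higher and 5 lower in the RP libraries, and over all genes tested 31.7% did not overlap.

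Against the Normal-titled libraries, 0 of the 40 members passed in edgeR, DESeq2 or limma-voom, and 4 had an unadjusted p under 0.05 in edgeR, where 2.50% of all genes tested passed (1.67% as higher and 0.835% as lower) and 17.1% had an unadjusted p under 0.05. The median log2 change of the members was -0.21, against -0.037 over all genes tested. Nfkbia was at 309 and 278 CPM in the RP libraries, against 465, 419 and 417 CPM in the Normal-titled libraries. Both RP libraries lay below all Normal-titled ones, at 0.677-fold with a 95% interval of 0.504 to 0.908, and the adjusted p was 0.155 (edgeR).

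Myd88, Icam1 and Tlr2 were the other members with an unadjusted p under 0.05 in this comparison, and all 3 lay below the Normal-titled libraries without overlap. Their fold changes were 0.698, 0.613 and 0.368, with adjusted p = 0.232, 0.259 and 0.198 (edgeR). Il1b stood at 0.471-fold (adjusted p = 0.448, edgeR) and passed without RP 2 (log2 change -4.05), as did Ccl2 (log2 change -4.43). The 4 tested subunits had log2 changes of -0.43 to -0.061, and Rela was at 0.959-fold with an interval of 0.761 to 1.21. Of the members, 4 were higher and 7 lower in the RP libraries without overlap, against 30.8% of all genes tested without overlap.

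**Figure D4:**
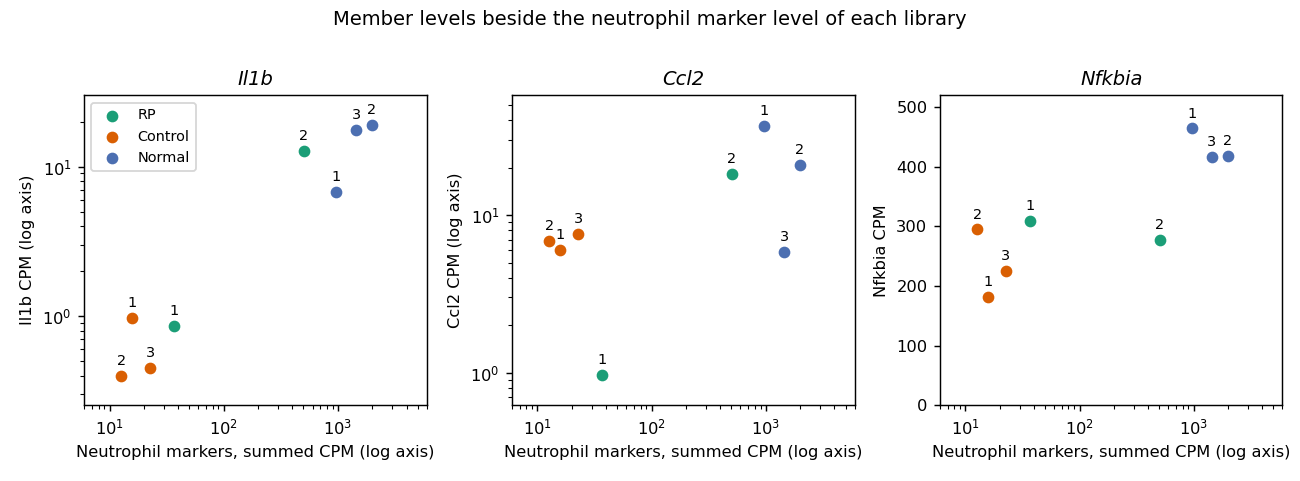
CPM of Il1b, Ccl2 and Nfkbia in each library against the summed CPM of 17 neutrophil markers (log axes, except a linear axis for Nfkbia); numbers mark the replicate. RP 2, at 503 CPM of neutrophil markers, lies near the Normal-titled libraries for Il1b, and RP 1, at 36.9 CPM, near the Control-titled ones. Of the 503 CPM in RP 2, S100a8 gave 233 CPM and S100a9 gave 225 CPM.

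Other genes of the pathway were read from a list of 53 signalling genes and a list of 47 further targets. Of 46 signalling genes tested in Control against Normal, 1 was higher and 6 lower, and of 33 further targets tested 2 were higher and 7 lower, where over all genes tested 4.99% were higher and 5.45% lower. The largest difference was in Tnfrsf12a, the gene of Fn14, the receptor for the cytokine TWEAK and a known regulator of muscle atrophy. Tnfrsf12a was at 5.91, 7.10 and 5.33 CPM in the Control-titled libraries, against 46.2, 43 and 25 CPM in the Normal-titled libraries (log2 change -2.64 ± 0.269 (SE), adjusted p = 6.97e-05, edgeR). The groups stood well apart. Tnfsf12, the gene of TWEAK itself, was the signalling gene that was higher, at 39.3, 31.3 and 33.4 CPM in the Control-titled libraries, against 18.5, 22.9 and 24.7 CPM in the Normal-titled libraries (log2 change 0.66, adjusted p = 0.0204, edgeR). Receptor and ligand stood on opposite sides of 0.

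The other signalling genes that were lower were the interleukin-1 decoy receptor Il1r2 (log2 change -2.18, adjusted p = 0.0137), the ubiquitin-binding scaffold Sqstm1 (-0.71, 0.0110), the linear deubiquitinase Otulin (-0.67, 0.0177), the autophagy receptor Optn (-0.64, 0.0407) and Peli1, an E3 ligase of the interleukin-1 receptor pathway (-0.56, 0.0444). Neutrophils also carry Il1r2, and the part of the neutrophil markers in its difference was not tested. Among the further targets, Selp (P-selectin), Sdc4 (syndecan-4), Pim1 (a survival kinase) and Ier3 (an immediate early survival gene) were lower, at log2 changes of -1.73, -1.28, -1.24 and -1.04. Ccnd1 (cyclin D1) was higher, at 1.42. Of the 8 fibroblast markers 6 were higher too, against 4.99% of all genes tested, and the part of these markers was not tested. Ier3 was at 46.7, 41.7 and 42.2 CPM in the Control-titled libraries, against 79.6, 95.7 and 93.6 CPM in the Normal-titled libraries (adjusted p = 0.00125, edgeR).

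None of the signalling genes or further targets passed in RP against Control in edgeR, where 4 of 46 and 7 of 33 (8.70 and 21.2%) had an unadjusted p under 0.05, against 8.98% of all genes tested. In RP against Normal, Tnfrsf12a, Ier3 and Pim1 were lower in the RP libraries, 1 of 46 signalling genes and 2 of 33 further targets, where 0.835% of all genes tested were lower. Tnfrsf12a was at 8.73 and 15 CPM in the RP libraries, below the Normal-titled libraries, which went no lower than 25 CPM (log2 change -1.68 ± 0.295 (SE), adjusted p = 0.00920, edgeR). Ier3 was at 34.8 and 49.6 CPM in the RP libraries (log2 change -1.09, adjusted p = 0.00685, edgeR), and Pim1 at 20.2 and 24.1 CPM (log2 change -1.19, adjusted p = 0.0361, edgeR).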

How the data were processed

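Libraries were made from 500 ng of total RNA with a Lexogen QuantSeq 3' kit, per the labels' protocols. The deposited tables hold raw counts per gene symbol, which the authors did not normalize; Bowtie2, edgeR and build mm10 are named in the submitters' processing notes, and the counting tool, strand and annotation are not given in the sources used here. The 44 extra rows of 35 repeated symbols, none of them a gene named here, were kept apart. Genes passing edgeR's filterByExpr (13174 of 23282 rows) went into edgeR 4.0.16 (R 4.3.3) and its quasi-likelihood test, with TMM factors and all 8 libraries in 1 fit, 2-sided, with Benjamini-Hochberg adjustment over all genes tested in each comparison and a threshold of 0.05. Standard errors were the log2 change over the root of F, and 95% intervals used its t distribution. The members, gene lists, the rule for named genes and the tests were chosen with earlier results of these data known. Named were all 44 members, up to 6 called genes of each further list and the marker lists; 1 such gene is not reported here. Overlaps came from GENCODE M21 and RefSeq on GRCm38, and promoters from RefSeq. Alternatives were 2 other normalizations, haemoglobin removal, 2 filters, DESeq2 1.42.0, limma-voom (limma 3.58.1), a looser threshold, only the 2 groups compared, the replicate number as a block, and each library left out in turn. The fitting steps were tested on simulated data. Figures were drawn with matplotlib 3.10.9.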

Additional observations from a re-analysis of the deposited data

How the results depend on the processing

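The 2 calls in Control against Normal, Nfkbia and Il1b, passed under each of the 17 other fits. The count of members called was 6 at an adjusted p under 0.1, 5 with no filter and 4 with DESeq2 and with limma-voom, and leaving out 1 library gave 2 to 6: 5 without Normal-titled library 1, 6 without Normal-titled library 3 and 4 without either RP library. The added members were Tlr4, Tnfaip2, Ccl2, Bcl3, Myd88, Nfkbib, Tnfrsf1a and Tnfrsf1b, each in some of these settings. Of all genes tested, 10.3% passed with no filter, 12.8% with DESeq2 and 10.3% with limma-voom. The share was 14.2% without Normal-titled library 1 and 11.5% without Normal-titled library 3, and 2201 of 13174 genes passed at an adjusted p under 0.1. The higher member counts are therefore not read as a result about the members. In RP against Control the count was 0, except 1 (Il1b) with no filter and without RP 1, so leave-outs gave 0 to 1. In RP against Normal it was 0 except without RP 2, where Ccl2 and Il1b passed, so leave-outs gave 0 to 2. With 1 RP library left, its spread was taken to equal that of the remaining groups. Over the 2006 log2 changes recomputed for the 40 members, 1878 kept their direction and their side of the threshold, 28 passed where they had not, and 100 changed sign while past the threshold in neither fit. All genes called in Control against Normal ranged from 608 without Control 3 to 1858 without Normal 1, and were 805, 609 and 846 without Normal 2, Control 1 and Control 2, against 1376; they numbered 2201 at an adjusted p under 0.1. With upper-quartile normalization 761 were higher and 615 lower, against 658 and 718. In RP against Control they ranged from 8 without Control 2 to 204 with no filter, against 23, and in RP against Normal from 57 without RP 1 to 718 with no filter, against 330. With the replicate block, the counts of members called were the same 2, 0 and 0. Same-numbered libraries showed no common deviation from their group means (correlations of their deviations from -0.07 to 0.08). The groups are small and the RP deviations mirror each other by construction, so this cannot decide whether the numbers pair libraries. Low counts limit Tnf, Il6, Rel, Ptgs2, Tlr2, Nos2 and Traf1.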

Other observations

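Among the 40 tested members, the highest level over the 8 libraries fell in Normal-titled library 1 for 16, against 20.9% of the 12640 genes with at least 80 counts summed over the libraries. Irak1, at 57.4 and 70.6 CPM in RP 1 and 2, lay below all Control-titled and Normal-titled libraries, which were at 72.2 CPM or more; its difference did not pass in either comparison (adjusted p = 0.612 and 0.416, edgeR), and its 3' end shares sequence with 23 other genes. Traf1 was 10.5 times as high in RP 2 as in RP 1 on 1 and 11 counts. Map3k7 varied least, with its highest library 1.19-fold above its lowest, and Il1b most, at 47.4-fold.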
